A study of Mus musculus with 288 samples.

Results

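Among single lung cells sorted as club lineage, 12 wells carried transcripts of motile cilia, and they were compared with 80 wells that had the profile of club cells. The ciliated-marker wells were selected on their own counts: a total above 500 and a sum of at least 10 counts over 12 cilium genes, namely Foxj1, Tppp3, Ccdc39, Dnah5, Cfap126, 1110017D15Rik, Rsph1, Ccdc153, Dynlrb2, Cfap52, Tekt4 and Dnah9. The club cells were selected on a total above 2340 counts, a sum of at most 1 over those genes, a share of Scgb1a1 of at least 10% of the total, and shares of Scgb3a1 and Sftpc each under 1%. The limit of 2340 is 10 times the total of the higher negative control. Together the wells chosen were 92 of the 288 in the study, of which 286 held a sorted cell and 2 were negative controls of medium. The 15 genes that chose the wells are described below and are not results.

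The lungs belonged to mice of the strain C57BL/6, aged 4 months, with the genotype Scgb1a1-CreER;Rosa26-mTmG. In this model the promoter of Scgb1a1 drives a drug-inducible recombinase, and a recombined cell switches its fluorescent membrane protein and passes the switch on to its descendants. Per the labels, sorted cells were positive for the Scgb1a1 lineage and for Epcam, lacked CD45 and CD31, and were low in CD24. Every well on both sides shares this strain, age, genotype and gate. The labels give no animal for any well, and the wells were therefore treated as 1 sample, with no p-value and no standard error. Every difference below describes these wells.

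Multiciliated cells carry many motile cilia, each built around an axoneme of microtubule doublets with dynein motor arms, radial spokes and a central pair. Their program is known to be switched on by a cascade in which the coiled-coil proteins GEMC1 and multicilin act upstream of Ccno and Myb, while Foxj1 and the RFX factors turn on the genes of the axoneme. Club cells are the secretory cells of the mouse small airway, known for secretoglobins and detoxifying enzymes, and they can give rise to ciliated cells.

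The ciliated-marker wells fell into wells with much and wells with little Scgb1a1. Scgb1a1 took 33.6% of the counts of well 107, 18.4% of well 66, 18.0% of well 204 and 16.9% of well 191. In the other 8 wells it took 0.714% (well 230), 0.463% (well 6), 0.409% (well 260), 0.338% (well 256), 0.254% (well 247), 0.248% (well 285), 0.219% (well 261) and 0.182% (well 283). No ciliated-marker well lay between 0.714% and 16.9%. The 4 Scgb1a1-rich wells had totals of 6495 to 8040 counts, and the 8 Scgb1a1-poor wells had 1367 to 5522, with 3 to 24 counts of Scgb1a1 against 20 and 18 in the controls. Club cells had totals of 2686 to 9718 with a median of 5423, and shares of Scgb1a1 from 15.5 to 49.2% with a median of 32.25%. Whether a Scgb1a1-rich well held more than 1 cell was not tested, and no doublet caller was run.

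The values that chose the wells are given as a description only. The sum over the 12 genes was 14 to 54 counts in the ciliated-marker wells, with a median of 25.50, and 0 or 1 in club cells. The nearest wells inside the limit held 14 and 16, and the nearest outside held 4 and 3. The lowest Scgb1a1 share of a club cell was 15.5%, and 1 well that met every other limit fell outside at 6.44%. All 3 defining markers of ciliated cells were present: Foxj1, the transcription factor of motile ciliogenesis, had 55 counts in 9 of the 12 wells, Tppp3 had 110 in 11, and Ccdc153 had 50 in 10. In the 80 club cells they had 0, 4 and 0 counts.

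Other properties of the wells moved with the comparison, and their part in the differences was not tested. The ribosomal RNA gene Rn45s took 8.39 to 20.7% of counts in the ciliated-marker wells (median 13.85%) and 3.41 to 33.1% in club cells (median 8.650%). Of the 3 successive sets of 96 columns in the table, the ciliated-marker wells were 2, 1 and 9, and the club cells 36, 31 and 13. Thinned to 2340 counts each, 4 Scgb1a1-poor wells detected 1230 to 1355 genes, the 4 Scgb1a1-rich wells 762 to 1130, and the 80 club cells 631 to 1083 with a median of 786. All 4 Scgb1a1-poor wells deep enough for this detected more genes than any club cell. The 2340 counts included Scgb1a1, with a median share of 32.25% in club cells and at most 0.714% in Scgb1a1-poor wells. Fewer of them were thus left for other genes in club cells, and the same holds for the shares of thinned wells given below.

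Genes of the axoneme separated the sides without exception, although none of the genes in this sum had been used to choose a well. Over 133 genes of dynein arms, dynein assembly, nexin links and radial spokes, the central pair, and tektins and doublet proteins, the ciliated-marker wells together had 678 counts and the club cells 183. That is 13358 CPM, counts scaled to the summed total of the wells (exact Poisson 95% interval 12372 to 14403), against 401 CPM (345 to 464), a ratio of 33.3 (28.2 to 39.4). Intervals here cover counting error only. By well, the lowest, median and highest levels were 1990, 17734 and 40872 CPM in the ciliated-marker wells and 0, 378 and 1417 in club cells, so that all 80 club cells lay below the lowest ciliated-marker well. The Scgb1a1-poor wells held 13393 to 40872 CPM and the Scgb1a1-rich wells 1990 to 12888, with no overlap on this scale. The totals behind these CPM include Scgb1a1, which took 16.9 to 33.6% of counts in the Scgb1a1-rich wells. It took at most 0.714% in the Scgb1a1-poor wells, so the scale lowers the Scgb1a1-rich wells more. The nearest wells were 66 (12888 CPM, 90 counts) and 230 (13393 CPM, 45 counts), and levels without Scgb1a1 were not compared. Since the wells were chosen by genes of the same organelle, the contrast with club cells and those of other cilium genes below are not independent of the choice.

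**Figure D1:**
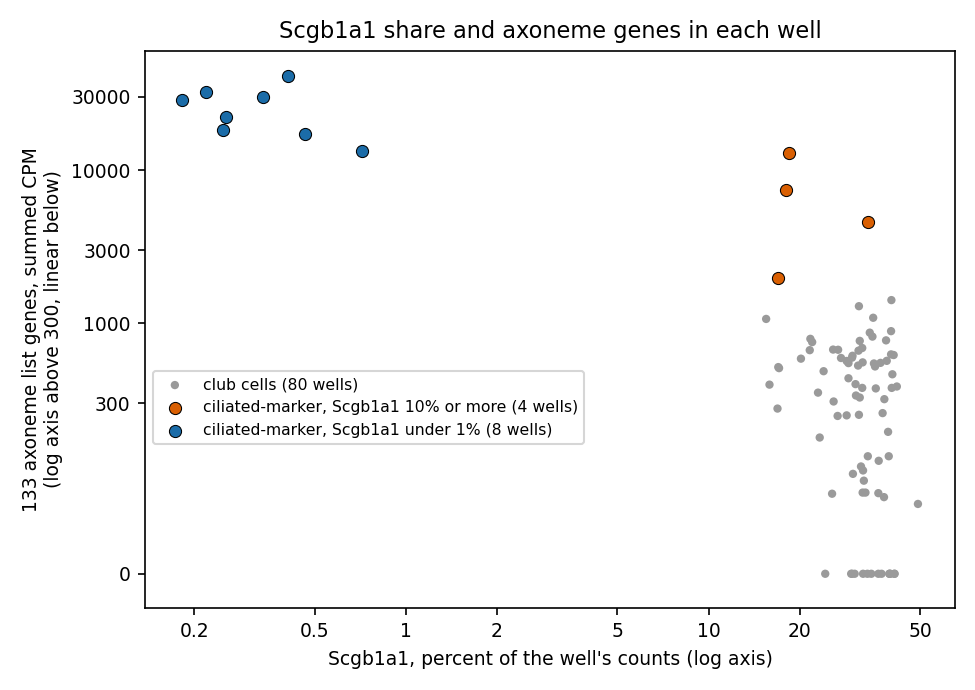
Each point is a well, with its Scgb1a1 share in percent of its counts on the log x axis and the summed CPM of 133 axoneme list genes on the y axis (log above 300, linear below). With Scgb1a1 counted in the totals, the 8 Scgb1a1-poor wells lie at 13393 to 40872 CPM, the 4 Scgb1a1-rich wells at 1990 to 12888, and the 80 club cells at or below 1417.

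Which cilium genes were found in ciliated-marker wells and never in club cells was counted gene by gene, since most of them had few counts. Over all genes that chose no well, 2841 had a count in at least 3 ciliated-marker wells, and 137 of these had no count in any of the 80 club cells, or 4.82%. Over the cilium lists together it was 81 of 178, or 45.5%. It was 7 of 9 central pair genes, 14 of 19 genes of nexin links and radial spokes, 15 of 23 tektins and doublet proteins, 6 of 13 dynein arm genes and 2 of 6 dynein assembly genes. For the parts that cilia of other kinds also use, the counts were 4 of 27 for intraflagellar transport and the BBSome, 1 of 10 for tubulins and their enzymes, and 1 of 18 for basal body and transition zone. The last of these, at 5.56%, was near the share of all genes. All 34 club cell and mucosal genes had a club count, and of 2470 genes in no list 55 had none (2.23%). With only the 8 Scgb1a1-poor wells it was 66 of 128 cilium genes, or 51.6%, against 7.52% of all genes, and with only the 4 Scgb1a1-rich wells it was 8 of 29, or 27.6%, against 1.04%. A gene missing from 80 club cells with 455876 counts may be present below the limit that 3 counts set. Club cells were chosen for at most 1 count over 12 cilium genes, so the shares of cilium genes are not independent of the choice. With fewer club cells, the 67 at a sum of 0, it was 91 of 178 cilium genes, or 51.1%, against 5.35% of all genes.

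**Figure D2:**
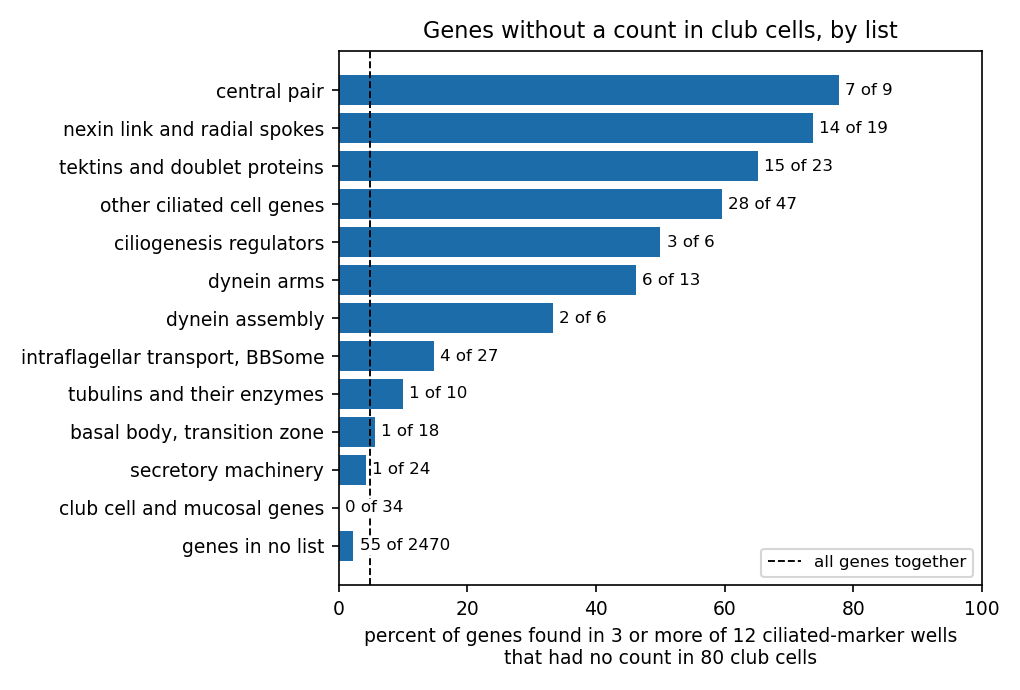
Bars give, for each gene list, the percent of genes found in at least 3 of the 12 ciliated-marker wells that had no count in the 80 club cells, with the counts printed beside each bar, and the dashed line marks all genes together (4.82%). Central pair, spoke and tektin genes stand at 65.2% or more, and basal body genes near the line.

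The structural genes in this set cover most parts of the axoneme. For the central pair, Hydin, a large central pair protein, had 5 counts in 4 wells, and Spag17 had 8 in 5. Dnajb13, a radial spoke protein, had 14 counts in 5 wells and Ak7, a ciliary adenylate kinase, 16 in 6. Tekt1, a tektin of the doublets, had 14 counts in 5 wells, and Sntn, sentan of the ciliary tip, 11 in 5. None of these 6 genes had a count in a club cell. Pifo and the dynein light chain gene Tctex1d4 had 16 counts each, in 8 and 7 wells.

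As sums, the lists of parts found only in motile cilia had higher ratios than the parts shared with other cilia. The ratio was 92.4 (42.6 to 238) for the central pair, 79.3 (48.6 to 137) for nexin links and radial spokes, 67.2 (46.1 to 101) for tektins and doublet proteins, 31.4 (17.1 to 61.7) for dynein assembly and 13.2 (10.3 to 16.9) for dynein arms. Dynll1, a light chain that cytoplasmic motors also use, gave 52 of the 166 dynein arm counts in ciliated-marker wells and 58 of the 113 in club cells. Basal body and transition zone genes had a ratio of 7.52 (6.01 to 9.40), intraflagellar transport and the BBSome 7.00 (5.80 to 8.44), and tubulins with their enzymes 3.75 (3.27 to 4.30).

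Gene by gene, a gene was called higher or lower when its pooled CPM differed at least 2-fold, the exact 95% interval of the ratio excluded 1 and both sides together held at least 20 counts. Of 2508 genes that met this minimum, 356 were higher in the ciliated-marker wells (14.2%) and 61 were lower (2.43%), with a median log2 ratio of 0.36. With TMM factors in place of totals every log2 ratio was 0.96 lower, the calls became 99 higher (3.95%) and 439 lower (17.5%), and the share of calls that were higher went from 85.4% to 18.4%. With totals that leave out Scgb1a1, Rn45s and the cilium genes of the choice, every log2 ratio was 0.34 lower, with 229 higher and 112 lower, or 67.2% higher. Directions of the called genes named below held under both scalings, and calls that TMM factors ended are stated.

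Of 364 genes in the cilium lists, 326 had a count and 32 reached 20 counts, of which 23 were higher and 0 lower, with a median log2 ratio of 2.02. A gene silent in club cells reached 20 counts only through the ciliated-marker wells, so these 32 are not a fair sample of the lists. The 23 were Tuba1a, Traf3ip1, AU040972, Lrrc23, 1700016K19Rik, Cfap43, Lrrc51, Ccno, Ccdc181, Tuba1b, Dynll1, Cfap20, Capsl, Pcm1, Cetn2, Lztfl1, Cd24a, Sec14l3, Tubb4b, Stmn1, Kif3a, Ift20 and Tbca. Under TMM factors 15 were still called higher. Without well 247 the number was 15, and the ratio of Cfap43 became 25.2 and that of Lrrc51 20.2, both then under 20 counts. Of the 23 genes 12 lost the call when some 1 well was left out, 9 of them only by falling under 20 counts. The other 3 were Stmn1, with a ratio of 1.26 without well 191 and 2.42 without well 204, Ift20, with 1.63 to 2.40 without well 6, 66, 247 or 285, and Kif3a, with 2.25 without well 191.

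Tuba1a, an alpha tubulin (chromosome 15, 98949837 to 98953703, minus strand, mm10), was the clearest tubulin. Its counts in the Scgb1a1-poor wells were 21 in well 247, 8 in wells 6 and 230, 7 in well 283, 6 in wells 261 and 285, 5 in well 260 and 3 in well 256. In the Scgb1a1-rich wells they were 6 in well 66, 5 in well 107, 3 in well 204 and 0 in well 191. The 80 club cells held 3 counts in all, in 3 wells. The Scgb1a1-poor wells, at 1692 to 4389 CPM, lay above every Scgb1a1-rich well (0 to 859) and every club cell (0 to 202). The ratio was 234 (77.0 to 1157), or a log2 ratio of 7.87. In wells thinned to 2340 counts, Tuba1a was found in 6 of 8 ciliated-marker wells (75.0%) and in 2 of 80 club cells (2.50%). The neighbouring Tuba1b, a near-identical copy whose reads could be split with it, had 63 counts against 67 and a ratio of 8.45 (5.89 to 12.1). Tubb4b, the beta tubulin of axonemes, had a ratio of 3.50 (2.61 to 4.65) and a count in 12 of 12 wells, and it was not called under TMM factors. As a list, 5 of 10 measured tubulins and tubulin enzymes were higher with a median log2 ratio of 0.82, which was -0.14 under TMM factors with 2 higher and 2 lower.

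AU040972 (chromosome 11, 79481719 to 79484031, minus strand) had 35 counts in 10 of 12 wells and none in club cells, which makes it at least 105-fold higher, or at least 67.2-fold without well 247, which held 15 of the counts. It is annotated as an antisense gene inside Nf1, and counts were not stated to use strand, so reads of Nf1 could be counted with it. Lrrc23, a radial spoke protein (chromosome 6, 124769863 to 124779727, minus strand), had 21 counts in 9 wells and none in club cells, at least 62.9-fold higher. 1700016K19Rik (chromosome 11, 75999912 to 76003569) had 20 counts in 8 wells, at least 59.9-fold higher. These 3 genes had no count in any club cell and no count in well 191. Lrrc23 fell under 20 counts without any 1 of 6 wells and 1700016K19Rik without any 1 of 8, with bounds of at least 50.1-fold and at least 50.4-fold then. Traf3ip1, a subunit of the intraflagellar transport complex (chromosome 1, 91494647 to 91529307), had 20 counts in 10 wells against 1 count in club cells, a ratio of 180 (28.7 to 7446), or 160 to 173 with under 20 counts when 1 of 6 wells was left out.

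Start regions of cilium genes were searched for the binding sequence of RFX factors, since Foxj1 and RFX factors are known to act on such genes. RefSeq promoters (GRCm38.p6) of 250 bases before to 50 after the start were searched on both strands. The sequences were GTTGCCATG, called the X-box here, its core GTTGCC, which every such match also contains, and the forkhead sequence TGTTTAC. Longer forms of the X-box were not searched for. Of the 81 cilium genes without a club count 63 matched the table, with 71 promoters. Of these, 34 held GTTGCC (47.9%), against 12.5% of all 32851 promoters and 12.8% of the 2553 promoters of measured genes. The X-box was in 6 of the 71 (8.45%) against 0.773% of all, and TGTTTAC in 3 (4.23%) against 3.65%. Of 53 promoters of the genes called lower, 3 (5.66%) held GTTGCC. The median GC content was 53.7% for the 71 promoters, 52.7% for all and 55.0% for those of the lower genes. A match describes letters in a window and is not a bound site. The 81 genes came from cilium lists and were picked for counts in the ciliated-marker wells and none in club cells. The 23 cilium genes called higher, some of them also among the 81 and most with club counts, had 19 promoters. Of these, 10 (52.6%) held GTTGCC, 1 (5.26%) the X-box and 2 (10.5%) TGTTTAC. For the 12 cilium genes that chose the wells, as a description only, 4 of 12 promoters (33.3%) held GTTGCC. Cilium list genes outside these sets were not searched as a set, so these shares cannot be tied to the wells. The stretches shown are from genes absent or nearly absent in club cells, all upstream of the start, with the matched letters in capitals; GGCAAC is the same core on the other strand.
Lrrc23, chr6:124779728-124779807 minus strand, match 39 bases before the start: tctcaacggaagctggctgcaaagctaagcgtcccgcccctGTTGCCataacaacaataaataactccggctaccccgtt
Traf3ip1, chr1:91494552-91494631 plus strand, match 79 bases before the start: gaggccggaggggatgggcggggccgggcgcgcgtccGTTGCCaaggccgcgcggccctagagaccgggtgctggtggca
Sntn, chr14:13670774-13670853 plus strand, X-box 66 bases before the start: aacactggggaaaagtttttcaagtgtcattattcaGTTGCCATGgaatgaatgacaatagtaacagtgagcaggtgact
Lrriq1, chr10:103236323-103236402 minus strand, X-box 19 bases before the start: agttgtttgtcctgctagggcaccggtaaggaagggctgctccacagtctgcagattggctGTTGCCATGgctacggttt
Lrrc23 and Traf3ip1 matched the core but not GTTGCCATG, and Sntn and Lrriq1 matched GTTGCCATG. Lrriq1 had 5 counts in 4 ciliated-marker wells and none in club cells.

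Among the regulators of ciliogenesis, wells 191 and 204 stood apart from the other 10 wells. Ccno, a cyclin-like protein needed for centriole amplification, had 15 counts in well 191, 6 in well 204 and 0 in the other 10. In club cells it had 10 counts in 5 of 80 wells, at most 5 in a well. Pooled, the ratio of Ccno was 18.9 (8.50 to 44.9), and without well 191 it was 6.40 and no longer called because too few counts were left. Mcidas, the gene of multicilin, had 1 count in well 191, 2 in well 204 and none in any other ciliated-marker well or club cell. Both wells therefore held counts of genes that act early in the known cascade.

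Deup1, a protein of the deuterosomes on which centrioles multiply, had 1 count in well 191, 4 in well 204 and 1 each in wells 66 and 230, with none in club cells. Myb had 2 and 9 counts in wells 191 and 204, 2 each in wells 6, 247 and 256, and 1 in all club cells. The cell cycle genes followed the Scgb1a1-rich wells. Cdk1 had 2 and 1 counts in wells 191 and 204 and none in the other 10, and Pcna, the replication clamp, had 10 and 4 there, 3 in well 107, 1 in well 66 and 0 in all 8 Scgb1a1-poor wells. Pcna had a ratio of 5.57 (2.92 to 10.4), or 2.94 without well 191.

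Well 191 combined counts of regulators with few of structural genes. It held 0 counts of Tuba1a and AU040972 and the lowest axoneme level of the 12 at 1990 CPM. That level came from 16 counts, against at most 7 in a club cell. Of the genes that chose the wells, given as a description only, it held 16 counts of Foxj1, the highest count of any well. Its total of 8040 counts was also the highest of the 12. As a level, Foxj1 stood at 1990 CPM there, below the highest of the 12 wells at 2468 CPM. Well 191 held 0 of Tppp3 and Ccdc153, 2 each of Ccdc39 and Dynlrb2, and 1 each of Cfap126 and Rsph1. Well 204, described in the same way, held 8 counts of Foxj1, 7 of Tppp3 and 0 of Ccdc153. Its axoneme genes stood at 7390 CPM. The transcription factor gene Rfx3 had 6 counts in 5 wells, 4 of them Scgb1a1-poor, and the centriole assembly gene Ccdc78 had 12 counts in 7 wells, 5 of them Scgb1a1-poor, both with none in club cells. Wells 191 and 204 had 0 counts of both genes, as did well 256. Gmnc, which encodes GEMC1, had no count in the ciliated-marker wells and 11 in club cells, which at these totals gives no usable ratio.

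**Figure D3:**
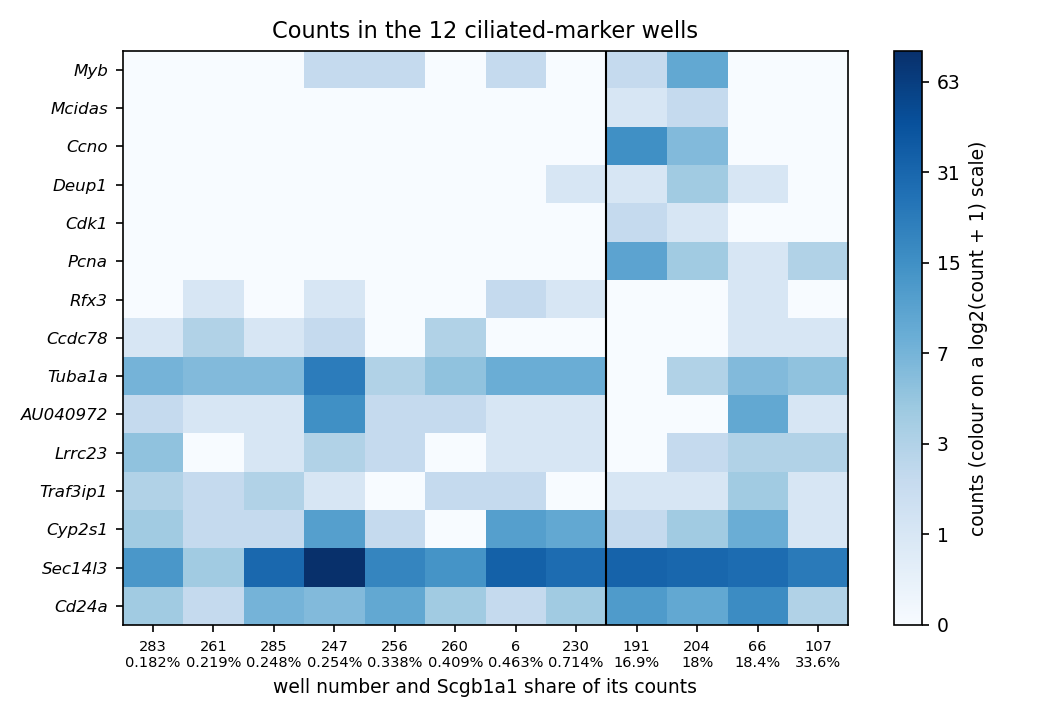
Colour gives the count of each gene (rows) in each of the 12 ciliated-marker wells (columns, in order of the Scgb1a1 share printed under the well number, the line parting the 8 wells under 1% from the 4 at 10% or more). Ccno and Mcidas are filled only in wells 191 and 204, and Sec14l3 and Cd24a in all 12 wells.

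Cd24a, which encodes the surface protein on which cells were sorted as low, was higher in the ciliated-marker wells. It had 2 to 16 counts in each of the 12 wells, at 380 to 5076 CPM with a median of 1478, against 0 to 1308 CPM with a median of 377 in club cells. The ratio was 3.94 (2.98 to 5.16), and 3.61 to 4.48 when any 1 well was left out. CD24 is known to be abundant on ciliated cells. The ranges overlapped: wells 6 (617 CPM), 247 (1087) and 230 (1190) of the Scgb1a1-poor wells and well 107 (380) of the Scgb1a1-rich wells lay within the range of club cells. Epcam, the positive surface marker of the gate, had 7 counts against 35 and was not called, with a ratio of 1.80 (0.673 to 4.10).

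Sec14l3, a lipid-binding protein known from airway ciliated cells, had a count in all 12 ciliated-marker wells and in 77 of the 80 club cells. It had 2926 to 14488 CPM in the Scgb1a1-poor wells (median 9845), 2788 to 4773 in the Scgb1a1-rich wells and 0 to 4870 in club cells (median 1535). The ratio was 3.82 (3.35 to 4.35), with a log2 ratio of 1.93 that falls under the 2-fold limit with TMM factors. The 3 groups of wells were in the same order for Tuba1a and Sec14l3, and the ranges of Sec14l3 overlapped.

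Of the 25 genes with the firmest higher calls, chosen by the lower bound of their interval, 9 were members of the cilium lists, 1 was of the club cell list and 15 were in no list. The 15 are described next. Tm4sf1, a membrane protein of the tetraspanin-like family, had 25 counts in 9 wells and 1 in club cells, a ratio of 225 (36.8 to 9219). Igfbp5, an insulin-like growth factor binding protein, had 31 counts against 6 and a ratio of 46.4 (19.1 to 136). Elof1, a transcription elongation factor, had a count in 12 of 12 wells and a ratio of 25.1 (13.7 to 48.8), and at equal depth it was in 8 of 8 ciliated-marker wells and 10.0% of club cells. Gsn, gelsolin that severs actin filaments, had a ratio of 36.9 (17.5 to 87.0), or 21.3 without well 247.

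Well 247 also decided the size of the metallothionein values. Mt1 had 33 of its 61 counts in that well and a ratio of 21.1 (13.1 to 34.8), or 10.9 without it, and Mt2 had 26 of 38 and 34.1 (16.7 to 76.8), or 12.1 without it. The zinc importer Slc39a4 had 10 of 20 counts there and a ratio of 11.2 (5.53 to 23.2), or 6.30 without it. These 3 genes, all tied to metal ions, were still higher without the well. Mt1 and Mt2 are neighbouring copies on chromosome 8, and reads could be split between them.

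The other genes named by the same rule had ratios from 9.28 to 37.4. They were Aldh3b1 (37.4), an aldehyde dehydrogenase, the microtubule-associated Map1b (25.4), Nudc (13.6), which works with dynein, the heat shock protein Hsph1 (14.7), the sorbitol dehydrogenase Sord (11.2), Ccdc181 (18.0), Nudt4 (17.1), Pisd-ps3 (11.7) and Crip1 (9.28). Cfap43 had 40.4 and Lrrc51 30.5, and both overlap other genes (Gsto1, Gsto2 and Itprip for Cfap43, Lamtor1 for Lrrc51), so their counts are uncertain. Nudc was higher in the Scgb1a1-rich wells (1020 CPM) than in the Scgb1a1-poor wells (656 CPM), unlike Aldh3b1 (170 against 937 CPM).

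**Figure D4:**
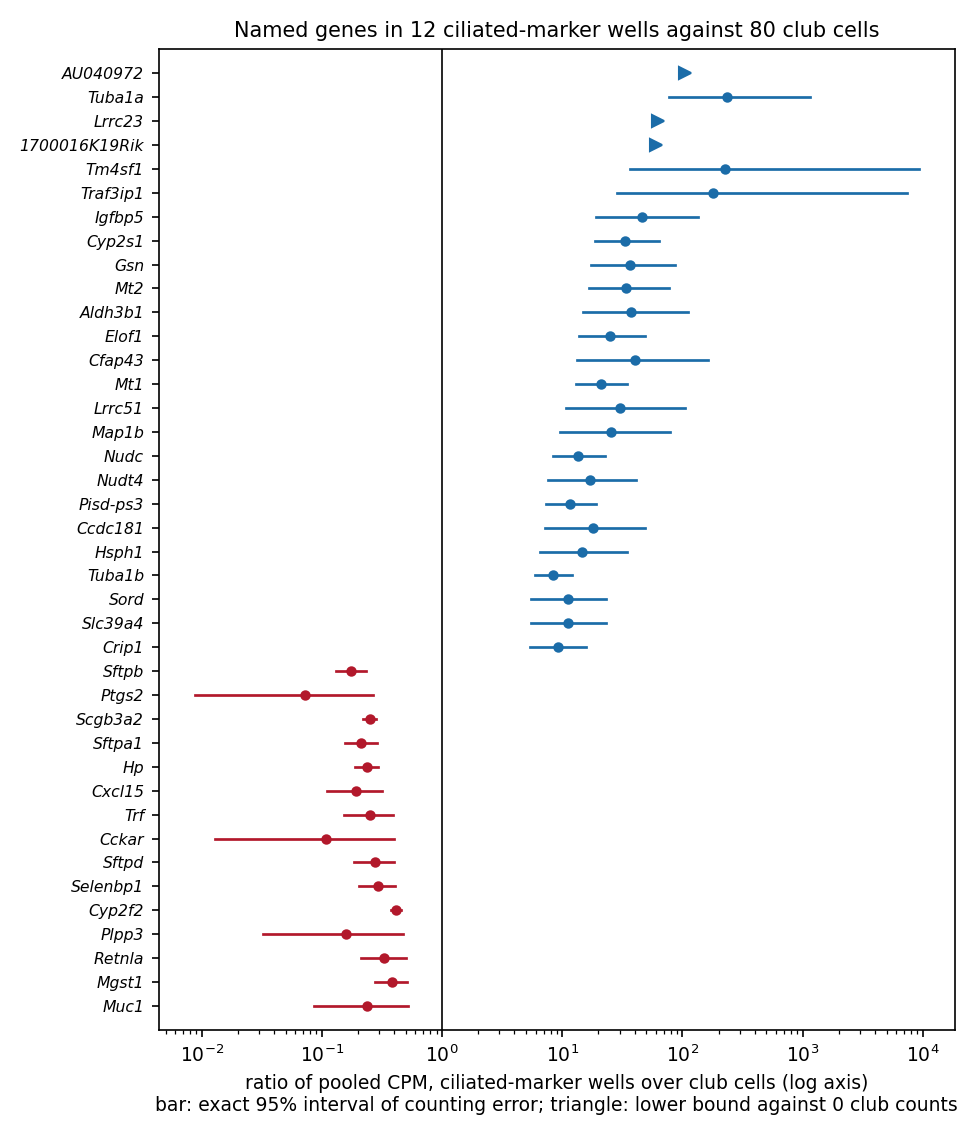
Points give the ratio of pooled CPM of each named gene in the 12 ciliated-marker wells over the 80 club cells on a log axis, bars the exact 95% interval, and triangles a lower bound for genes without a club count. The 25 higher genes lie between 8.45 and 234 and the 15 lower genes between 0.0730 and 0.415.

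Club cell genes were lower as a group, but not to the same degree. The club side was chosen for a Scgb1a1 share of at least 10%, and the ciliated-marker side had no such limit. Contrasts of club cell genes here and below are therefore not independent of the choice. Of 36 measured genes of the club cell list, 14 were lower and 1 higher, with a median log2 ratio of -0.97 against 0.36 over all measured genes, of which 2.43% were lower. Among them were Cckar, Gabrp, Hp, Scgb3a2, Selenbp1, Gstm2, Retnla, Aox3, Mgst1, Cyp2f2, Lypd2, Scnn1b and Por. Under TMM factors 27 were lower, against 17.5% of all. The club list kept a negative median in the Scgb1a1-poor wells (-0.93, 14 lower, against 3.41% of all) and in the Scgb1a1-rich wells (-0.50, 6 lower, against 1.74% of all). Several of these values rested on few counts: without well 66 the ratio of Lypd2 was 0.274, without well 107 that of Aox3 was 0.217 and of Gabrp 0.103, and without well 191 that of Gabrp was 0.104 and of Scnn1b 0.144. The calls of 4 genes were not stable to leaving out 1 well. Scnn1b lost its call without any 1 of the other 11 wells (0.477 to 0.563), Aox3 without any 1 of 7 (wells 6, 204, 230, 247, 256, 283 and 285, 0.380 to 0.420), Por without any 1 of 7 (wells 6, 191, 204, 247, 256, 261 and 285, 0.501 to 0.554) and Lypd2 without well 6, 107 or 191 (0.505 to 0.560).

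Cyp2f2, the cytochrome P450 that marks club cells (chromosome 7, 27119909 to 27133660), was lower and was found in every well of both sides. It had 911 to 8036 CPM in the Scgb1a1-poor wells (median 2507), 4773 to 19894 in the Scgb1a1-rich wells (median 11173) and 3777 to 31859 in club cells (median 20571). The ratio was 0.415 (0.377 to 0.457). The ciliated-marker wells held 2 to 157 counts of Cyp2f2 and both controls 0. The 3 groups were thus in the reverse of their order for Tuba1a, with overlapping ranges.

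Scgb3a2, another club cell secretoglobin, had 250 of its 254 counts in the Scgb1a1-rich wells. Its counts there were 206 in well 66, 33 in well 107, 8 in well 204 and 3 in well 191, and the 8 Scgb1a1-poor wells held 4 counts in all, against 1 in each control. Club cells had 0 to 58233 CPM with a median of 16043. The ratio was 0.250 (0.220 to 0.283), and 0.0547 without well 66. Hp, haptoglobin, had 0 to 1488 CPM in the Scgb1a1-poor wells, 1386 to 3928 in the Scgb1a1-rich wells and 801 to 18153 in club cells, with a ratio of 0.237 (0.190 to 0.292). Retnla had 10, 8, 5 and 1 counts in wells 66, 107, 204 and 191, and 0 in all 8 Scgb1a1-poor wells, with a ratio of 0.331 (0.211 to 0.497).

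Other club cell genes had pooled levels closer to those of club cells and were found in wells with almost no Scgb1a1. Cbr2, carbonyl reductase, had 6378 to 44647 CPM in the Scgb1a1-poor wells (median 15743), 9854 to 30664 in the Scgb1a1-rich wells and 9880 to 51734 in club cells (median 27695). In counts, the Scgb1a1-poor wells held 14 to 170 of Cbr2 against 0 and 1 in the controls. The ratio was 0.779 (0.733 to 0.828), not called, and called lower under TMM factors. Aldh1a1, an aldehyde dehydrogenase, had a ratio of 1.17 (1.00 to 1.37) and a count in 12 of 12 wells, and the carboxylesterase Ces1d 0.801 (0.627 to 1.01), also in 12 of 12, and Ces1d was lower under TMM factors. The pooled levels of these 3 genes were within 2-fold of club cells, but single wells varied: Cbr2 in wells 283 (6378 CPM) and 204 (9854 CPM) lay below every club cell.

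Cyp2s1, a cytochrome P450 of the club cell list (chromosome 7, 25802475 to 25816913), went the other way. It had 11 counts in wells 6 and 247, 9 in well 230, 8 in well 66, 4 in wells 204 and 283, 2 in wells 191, 256, 261 and 285, 1 in well 107 and 0 in well 260. Club cells held 15 counts in 13 of 80 wells. The ratio was 33.5 (18.7 to 63.8), and it was higher in both the Scgb1a1-poor wells (1921 CPM) and the Scgb1a1-rich wells (510 CPM) than in club cells (32.9 CPM).

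**Figure D5:**
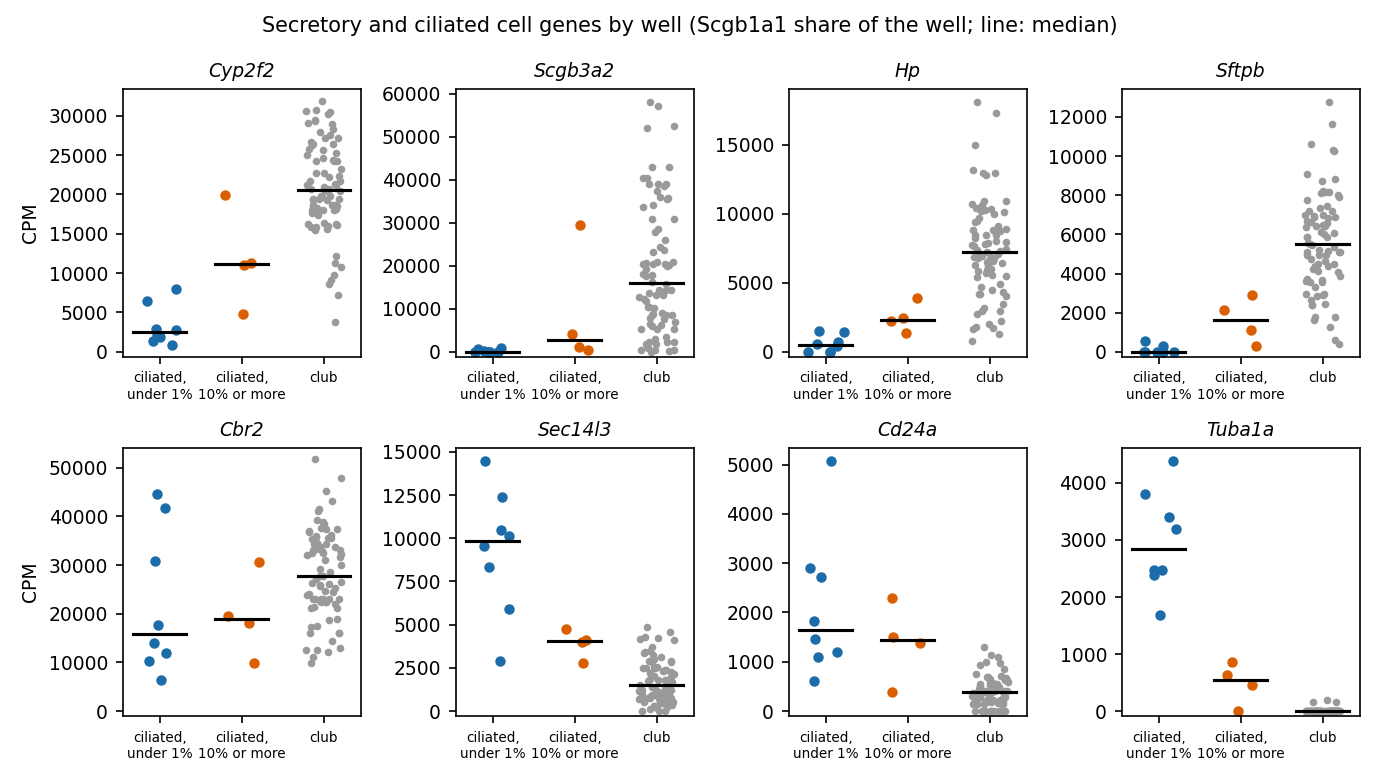
Each point is a well, on the y axis the level of 1 gene in CPM, for the 8 Scgb1a1-poor ciliated-marker wells, the 4 Scgb1a1-rich ciliated-marker wells and the 80 club cells, with lines at the medians. Cyp2f2 medians are 2507, 11173 and 20571 CPM from left to right, those of Tuba1a 2835, 548 and 0, and Cbr2 overlaps throughout.

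Surfactant genes, which club cells of the distal airway also express, were lower. Sftpb, surfactant protein B (chromosome 6, 72304610 to 72314371), had 23, 15, 9 and 2 counts in wells 107, 66, 191 and 204, 1 each in wells 230 and 256, 0 in the other 6, and 3 to 90 in every club cell. The ratio was 0.176 (0.131 to 0.232), or 0.115 without well 107. Sftpa1 had 45 counts, all in the Scgb1a1-rich wells, and a ratio of 0.213 (0.155 to 0.286), or 0.110 without well 66. Sftpd had 0.278 (0.186 to 0.399). Of the alveolar type 2 list, 6 of 7 measured genes were lower, against 2.43% of all: these 3, Cxcl15, Abca3 and Scd1. Cxcl15, a chemokine of lung epithelium, had 0.193 (0.110 to 0.316), or 0.0859 without well 107, and Abca3 2 counts against 95 and 0.189, or 0.110 and 0.112 without well 66 or 191. The summed level of the list was 0 to 911 CPM in the Scgb1a1-poor wells, 1232 to 7729 in the Scgb1a1-rich wells and 4806 to 35465 in club cells.

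The remaining lower genes named by the rule had 2 to 45 counts in the ciliated-marker wells. Ptgs2, the inducible cyclooxygenase, had 2 counts against 246 in 58 club cells, a ratio of 0.0730 (0.00879 to 0.267), or 0.0423 and 0.0434 without well 66 or 191. Cckar, the cholecystokinin receptor, had 2 against 167 and a ratio of 0.108 (0.0129 to 0.395), or 0.0617 and 0.0553 without well 204 or 261. Trf, transferrin, had 20 against 713 and a ratio of 0.252 (0.153 to 0.392). Selenbp1 had 0.292, Plpp3 0.159 (0.0629 without well 107), Mgst1 0.381 (0.235 without well 66) and the membrane mucin Muc1 0.237 (0.0940 without well 191). Of 11 measured antimicrobial and mucosal genes, 3 were lower and none was higher, beside 2.43% lower and 14.2% higher over all measured genes. The 3 were Cxcl15, the complement gene C3 (0.293) and Chil1 (0.442, or 0.171 without well 66). Chil1 was at 0.507 and not called without well 204.

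Of 17 measured S100, annexin and keratin genes, 7 were higher and 0 lower with a median log2 ratio of 1.00, beside 14.2% higher, 2.43% lower and a median of 0.36 over all measured genes. Under TMM factors the median was 0.03 and the calls were 2 higher and 2 lower. S100a6 had a ratio of 6.62 (3.91 to 11.1) and Anxa2 4.65 (3.32 to 6.47), and these 2 remained higher under TMM factors. Krt8, a keratin of simple epithelium, had a count in 12 of 12 wells and 3.37 (2.73 to 4.14), and Krt18 2.09 (1.52 to 2.83), and neither was called under TMM factors. Anxa1, S100a13 and Lgals3 were the other 3. Krt18 was not called without well 204 or 247 (1.55 to 1.94), Lgals3 without well 66, 256 or 285 (2.04 to 2.29) and S100a13 without well 6, 66, 191, 256 or 283 (2.13 to 2.69).

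In the Notch pathway, whose activity is known to favour the secretory over the ciliated fate, 2 of 5 measured genes were higher and 1 lower, beside 14.2% and 2.43% of all. The 3 calls rested on few counts or on 1 well. Hes1, a target of Notch, had 47 counts against 144 and a ratio of 2.93 (2.06 to 4.10), with 19 of its counts in well 247, and without that well the ratio was 1.96 and not called. The ligand gene Jag1 had 8 against 22 and 3.27 (1.26 to 7.62), or 1.94 without well 191, and Nrarp, another target, 1 against 55 and 0.163 (0.00406 to 0.949), not called without well 6, 66, 107, 191, 204, 230 or 247 (0.174 to 0.580). Hes1 and Jag1 were not called under TMM factors.

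None of 41 measured cytosolic ribosomal protein genes was called, with a median log2 ratio of -0.16, although their summed level was 53077 CPM in the Scgb1a1-rich wells, 22488 in the Scgb1a1-poor wells and 43891 in club cells. With only the 8 Scgb1a1-poor wells 24 of the 41 were lower with a median of -1.15, beside 3.41% lower and a median of 0.77 over all measured genes. With those of the third column set alone 33 were lower with a median of -1.67. Over all genes measured there, 106 of 402 were lower and the median was -0.36. With only the 4 Scgb1a1-rich wells the median was 0.22, none of the 41 was lower and 1 was higher. The pooled value of this group thus covered unlike wells. Of 35 respiratory chain genes 1 was lower, Ndufa1 (0.428, or 0.506 and not called without well 107), and the median was 0.44. Under TMM factors 28 of the 41 (68.3%) and 9 of the 35 (25.7%) were lower, beside 17.5% of all measured genes. Of 25 genes of the secretory machinery 3 were higher (Spcs1, Manf and Hsp90b1, with Manf at 1.44 without well 66) and 0 lower, a share of 12.0% near the 14.2% of all genes. Without 1 well, Spcs1 lost its call in 1 case (well 107, 2.57), Manf in 3 (wells 66, 107 and 191, 1.44 to 2.02) and Hsp90b1 in 5 (wells 230, 247, 260, 283 and 285, 1.69 to 2.00). Of 18 antioxidant genes Prdx4, Prdx5 and Txnrd1 were higher, also near the share of all genes at 16.7%, and Prdx6 was lower (0.480, and 0.305 without well 107). Prdx4 was not called without well 204 or 247 (2.96 to 3.03), nor Prdx6 without well 6, 66, 204 or 247 (at most 0.551). These higher calls among secretory and antioxidant genes were not made under TMM factors. None of 15 measured lung epithelial transcription factors was called, among them Nkx2-1 (1.92, 0.824 to 4.01).

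Markers of other cell types were scarce in the ciliated-marker wells. All genes of the neuroendocrine, tuft, ionocyte, endothelial, immune and mesenchymal lists had 0 counts in the 12 wells, which hold 50755 counts. In club cells, which hold 455876 counts, these lists had 3, 3, 6, 14, 5 and 0 counts. At these depths the 0 counts do not set the sides apart. The goblet list had 22 counts, 16 of them Muc5b in well 66, where Scgb3a1 took 2.12% of the counts. Muc5b had a ratio of 3.47 (1.86 to 6.20) and 0.237 without well 66, and it was not called under TMM factors. The basal list had 1 count and the erythroid list 3. Of the alveolar type 1 list 1 of 5 measured genes was higher, beside 14.2% of all measured genes. This gene was Emp2 at 3.27, or 1.75 without well 230, and it was not called under TMM factors.

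The comparison was repeated within the column sets. In the first set, with 2 ciliated-marker wells and 36 club cells, 74 genes were higher and 15 lower, and in the third, with 9 and 13, 65 were higher and 44 lower. In the third set with its 7 Scgb1a1-poor wells alone, 63 were higher and 106 lower. Of the 65 genes higher within the third set 57 were among the 356, and of the 44 lower genes 27 were among the 61. The second set held 1 ciliated-marker well and gave no value. Within the third set Tuba1a, Tuba1b, AU040972, Ccno, Cyp2s1, Cd24a, Sec14l3 and Tubb4b were higher, and Sftpb, Sftpa1, Scgb3a2, Hp, Cyp2f2, Cckar and Retnla lower. Of the 25 named higher genes 13 were called higher there and the other 12 had under 20 counts, among them Lrrc23, 1700016K19Rik, Traf3ip1, Cfap43, Lrrc51 and Ccdc181. Of the 15 named lower genes 14 were called lower and 1 had under 20 counts. Of the 23 cilium genes 8 were called higher, 14 had under 20 counts and 1 was measured and not called, and of the 14 club cell genes 8 were called lower, 3 had under 20 counts and 3 were measured and not called. Abca3, C3 and Chil1 were not called within the set.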

How the data were processed

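Single sorted cells and 2 medium controls were profiled in wells with a poly(A)-primed library that carries a molecular barcode and is amplified by PCR, per the labels' protocols. The authors' deposited table gives raw whole-number counts, with 24781 gene symbols as rows and 288 wells as columns. STAR (version not given) and mm10 are named in the submitters' processing notes. How reads were counted, with which annotation, with or without strand, and whether barcodes were collapsed is not given in these sources. If barcodes were not collapsed, PCR copies were counted and all intervals are too narrow. The table held no spike-in and no mitochondrial row, and 0 wells were identical to another.

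Counts of the chosen wells were summed per side, giving 50755 in the ciliated-marker wells and 455876 in club cells, and scaled to CPM with exact Poisson intervals. Ratios had exact conditional binomial intervals at 95%. A side at 0 was set to 3 counts and the ratio given as a bound. Wells of 1 sample are not replicates, so no test was made. Named genes were the 25 higher genes of highest lower bound and the 15 lower genes of lowest upper bound, among genes outside the choice of wells, with a count in at least 50% of the wells of the higher side, that stayed 2-fold without any 1 ciliated-marker well, and list members. The wells, rules and gene lists were chosen with earlier results of these data known. Coordinates are those of GENCODE M21 on GRCm38, which 24241 symbols matched. Python 3.11.15, numpy 2.4.6, pandas 2.3.3, scipy 1.17.1, matplotlib 3.10.9 and, for TMM factors on the 2 summed columns (1.40 and 0.716), edgeR 4.0.16 in R 4.3.3 were used.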

Additional observations from a re-analysis of the deposited data

Results flagged for a closer look

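Well 70 belonged to neither side of the comparison, and it held the highest sum of the 12 cilium genes among the sorted wells left out. The sum was 4, and all of it was Tppp3, against 0 counts in the first control and 1 in the second. It was looked at because this signal lies in a well that the comparison does not use and above the controls in counts. The controls had totals of only 41 and 234 counts, and as a share of the total the signal was not above the second control. Well 70 had a total of 5338 counts, Scgb1a1 took 6.59% of them and Sftpc 0.0187%, and it had 0 counts over the 133 axoneme genes.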

How the results depend on the processing

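No direction of a named gene was reversed: of 1240 ratios of the 40 named genes under alternatives, 1053 stayed within the main interval and 187 moved outside it in the same direction. For the cause of every change below, fewer wells, fewer genes or another scale are part of how the alternative was made, and no other cause was tested. Genes higher (main 356) and lower (61) were 229 and 112 with totals without Scgb1a1, Rn45s and the chosen cilium genes, 99 and 439 with TMM factors, 1097 and 61 with no count minimum, 124 and 61 with a minimum of 50 counts, 125 and 30 at 4-fold, 602 and 286 by fold alone, 141 and 39 with the 3 ciliated-marker wells that met the club limits on Scgb3a1, Sftpc and Scgb1a1, and 103 and 36 in thinned wells. They were 74 and 15 in column set 1 and 65 and 44 in column set 3. Chosen after seeing the data, the Scgb1a1-poor wells gave 344 and 79, the Scgb1a1-rich wells 155 and 40, and the Scgb1a1-poor wells of column set 3 63 and 106. Leaving out 1 ciliated-marker well gave 300 to 416 higher and 47 to 60 lower genes. Cilium genes higher (main 23) were 15 with TMM factors, 208 with no minimum, 8 with a minimum of 50, 8 within the club limits, 6 thinned, 6 and 8 in column sets 1 and 3, 11 in Scgb1a1-poor wells, 10 in Scgb1a1-rich wells and 7 in Scgb1a1-poor wells of column set 3, and 15 (without well 247) to 23 with 1 well left out. Club and mucosal genes lower (main 17) were 35 with TMM factors, 5 at 4-fold, 11 thinned, 4 and 10 in column sets 1 and 3 and 8 in Scgb1a1-rich wells, and 13 to 19 with 1 well left out. Cilium genes with no club count (main 81) were 8 in Scgb1a1-rich wells and 74 to 80 with 1 well left out. Ratios under 0.5 or over 2 that rest on 1 to 3 counts are limited by depth.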

Other observations

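Genes in none of the lists were also found in ciliated-marker wells and never in club cells. There were 55 of 2470 such genes, and they were singled out after their values were seen. Prr18 had 13 counts in 8 of the 12 wells, Ctxn1 11 in 7, Pltp, the phospholipid transfer protein, 11 in 5, 1600029I14Rik 10 in 7, and Wnt11, a Wnt ligand, 7 in 4. In the 194 sorted wells of neither side, Prr18 and Ctxn1 had 1 count each, and Pltp, 1600029I14Rik and Wnt11 had none. Hdc, the enzyme that makes histamine, had 12 counts in 8 wells and none in club cells, but 86 counts in the sorted wells of neither side. Of these 6 genes only Hdc had more than 1 count outside the ciliated-marker wells, and none of them had a count in a control.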
